A study of Mus musculus with 14 samples.

Results

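Proteins of the extracellular matrix and the integrins that bind it were followed through RNA and open chromatin of sorted mouse photoreceptors. The group holds every gene of the RNA-seq table named as a collagen chain, a laminin, an integrin, a thrombospondin, a tenascin (without Tnc), a fibulin, a fibrillin, a link protein or an ADAMTS protease, together with Impg1, Impg2, Vcan, Acan, Bcan, Ncan and Fn1. Its members were taken by name alone, but the group was chosen with earlier results of these data known. Shares of called members are therefore no independent evidence of an excess. The group comprises 129 of 24421 genes, of which 44 encode collagen chains, 31 carry integrin names, 19 are ADAMTS proteases, 14 are glycoproteins (thrombospondins, tenascins, fibulins, fibrillins and fibronectin), 11 are laminins, and 10 are proteoglycans or link proteins. Among the integrin names, Itgb1bp1, Itgb1bp2, Itgb3bp, Itgbl1 and Itgb2l are taken by the name rule although they are not all integrin subunits.

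Photoreceptors have no basement membrane of their own. Their outer segments stand in the interphotoreceptor matrix, a hyaluronan-rich matrix held by the proteoglycans IMPG1 and IMPG2. Basement membranes elsewhere in the eye are built of laminins and of type IV collagen, whose chains come from pairs of genes that lie head to head and assemble in set trios. Integrins are heterodimers of an alpha and a beta subunit that tie such matrices to the cytoskeleton.

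Photoreceptors were sorted by GFP fluorescence from retinas of C57BL/6 mice aged 8 weeks, and each library came from a separate sort of retinas pooled over several mice. RNA was sequenced from Nrl-/- photoreceptors (genotype Nrl-eGFP;NrlKO, labelled as blue cones) and from rods (Nrl-eGFP), with 3 libraries each. Open chromatin was profiled by ATAC-seq, in which a transposase inserts adapters into accessible DNA, in 2 libraries each of Nrl-/- photoreceptors, double-sorted green cones (Opn1mw-GFP), single-sorted green cones (Opn1mw-GFP) and rods. Nrl encodes the transcription factor that commits photoreceptors to the rod fate. The same Nrl-driven eGFP marked the sorted cells of the Nrl-/- and rod groups, and Opn1mw-driven GFP marked the green cones. The mice were male, except that the double-sorted green cones also came from female mice, and the study's sample list gives the line of Nrl-/- mice for single-sorted green cone library 1, against the label.

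RNA-seq libraries held between 18376770 and 26312895 reads in genes, and ATAC-seq libraries between 1062403 and 5770075 reads in the 53204 elements of 200 bp. Nrl itself had 34.5, 39.3 and 24.6 counts per 1000000 reads in genes (CPM, after scaling) in Nrl-/- photoreceptors, against 599, 845 and 745 CPM in rods, a log2 fold change of -4.48 (SE 0.20, edgeR adjusted p = 1.04e-08), and the files do not show where in Nrl the remaining reads lie. Marker lists matched the labels, with all 7 cone markers higher and all 5 rod markers lower in Nrl-/- photoreceptors. Of the 7 microglia and macrophage markers, 5 were higher in Nrl-/- photoreceptors, with summed levels of 21.9 to 47.6 CPM in Nrl-/- photoreceptors and 3.76 to 5.84 CPM in rods. Of the 6 endothelial markers, only Pecam1 passed the test and was lower, and the list summed to 2.13 to 4.68 CPM in Nrl-/- photoreceptors and 9.13 to 12.2 CPM in rods, with Cdh5 at 0 reads in 2 of 3 libraries of each group. Markers of pericytes, smooth muscle and fibroblasts summed to 2.07 to 2.49 CPM in Nrl-/- photoreceptors and 1.72 to 3.39 CPM in rods, and 7 of these 8 genes were under 1 CPM in every library. The 7 Müller glia markers summed to 44.8 to 61.5 CPM in Nrl-/- photoreceptors and 61.4 to 94.8 CPM in rods. None of them was called, although Dkk3 and Slc1a3 were lower and Crym was higher in Nrl-/- photoreceptors without overlap. Of the 6 bipolar cell markers 2 were higher and 1 lower, and their sums of 1368 to 1562 CPM in Nrl-/- photoreceptors and 76.9 to 100.1 CPM in rods were mostly Cabp5 in Nrl-/- photoreceptors (mean 1402 CPM, against 14.2 CPM in rods). What part any of these cells had in the results was not tested. In such bulk samples fewer cells of a type and less RNA per cell cannot be told apart.

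Among the matrix genes, 4 of the 6 type IV collagen genes changed, in opposite directions. Col4a3 and Col4a4 were nearly absent from Nrl-/- photoreceptors, while Col4a5 and Col4a6 were nearly absent from rods. Other collagens (Col17a1 up, Col19a1 and Col26a1 down), the integrin subunits Itga4, Itgb5 and Itgam and the secreted proteins Adamts8 and Fbln5 also differed, whereas IMPG1 and IMPG2 transcripts were abundant in both groups. Of the 129 genes, 41 had enough reads to be tested, and 88 did not, among them 20 without a read in any library. A gene was called when its change exceeded 1 on the log2 scale in the quasi-likelihood model of edgeR, with p-values adjusted by Benjamini-Hochberg over 12327 tested genes and a threshold of 0.05. In Nrl-/- photoreceptors 8 of the 41 genes were higher (19.5%), where 13.3% of all tested genes were, and 5 were lower (12.2%), where 6.88% of all tested genes were. The 3 Nrl-/- libraries lay entirely above the 3 rod libraries for 14 of the 41 genes and entirely below them for 12, where 33.8% and 33.2% of all tested genes did so. The median log2 fold change of the 41 genes was 0.02, beside -0.01 over all tested genes. The low-count filter passes a gene that reaches its minimum in only a single group, so these counts describe the genes that passed and not all 129.

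**Figure D1:**
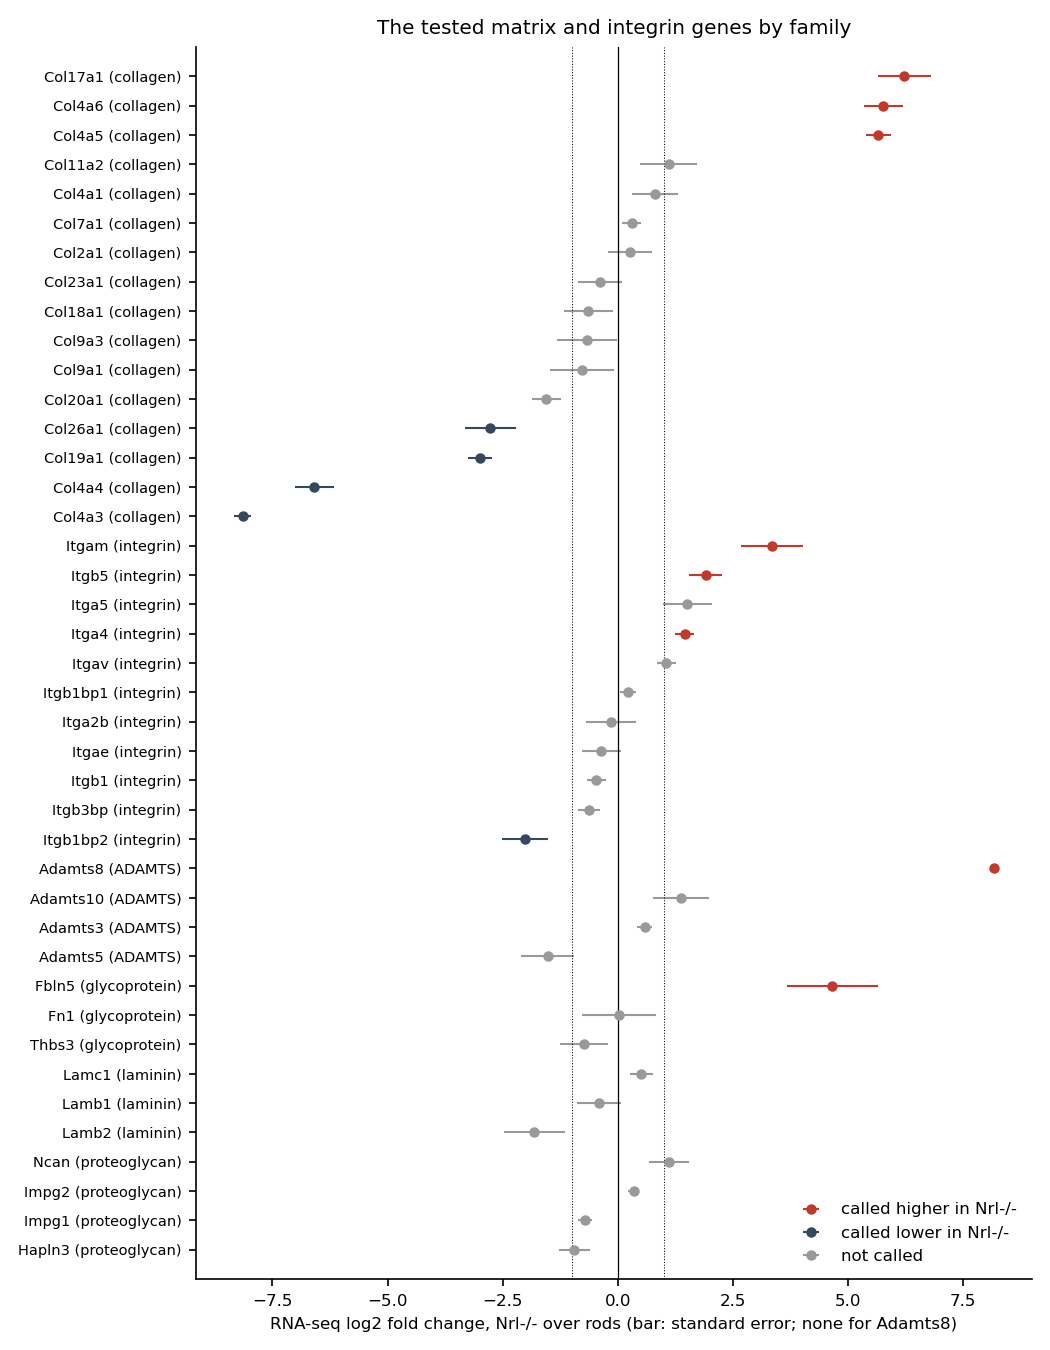
RNA-seq log2 fold change of Nrl-/- photoreceptors over rods for the 41 tested matrix and integrin genes, ordered by family, with bars for the standard error and dotted lines at the tested log2 fold change of 1 in each direction. Col4a3 (-8.15) and Col4a4 (-6.59) lie far to the left, and Col4a5 (5.66), Col4a6 (5.77) and Col17a1 (6.23) far to the right. Adamts8 has no bar because rods held no read of it.

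Col4a3 encodes the alpha 3 chain of type IV collagen, known from the basement membranes of kidney, inner ear and lung. It had 0.829, 1.25 and 1.31 CPM in Nrl-/- photoreceptors, against 352, 297 and 317 CPM in rods. Every rod library lay above every Nrl-/- library. The log2 fold change was -8.15 (SE 0.19, edgeR adjusted p = 4.33e-11), which is a fitted level 283-fold higher in rods. Col4a4, the partner gene for the alpha 4 chain, had 0.0789, 0.156 and 0.0749 CPM in Nrl-/- photoreceptors, against 14.3, 8.19 and 8.90 CPM in rods. The fold change was -6.59 on the log2 scale (SE 0.42, edgeR adjusted p = 1.95e-07), again without overlap. In rods, Col4a3 reached 37.4 CPM per kb of exon length and Col4a4 reached 1.34 CPM per kb, so the levels of the partners were unequal. The genes lie head to head on GRCm38, Col4a3 on the plus strand at chr1:82586921-82722059 and Col4a4 on the minus strand at chr1:82450723-82586849, with 72 bp between their annotated starts.

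The opposite change was seen in the pair on the X chromosome. Col4a5, the gene of the alpha 5 chain, had 25.7, 23.3 and 26.6 CPM in Nrl-/- photoreceptors, against 0.759, 0.261 and 0.445 CPM in rods (log2 fold change 5.66, SE 0.28, edgeR adjusted p = 2.03e-08). Col4a6, the gene of the alpha 6 chain, had 11.9, 9.72 and 8.01 CPM in Nrl-/- photoreceptors, against 0.0506, 0.313 and 0.167 CPM in rods (log2 fold change 5.77, SE 0.42, edgeR adjusted p = 7.96e-07). The groups did not overlap for either gene. These genes are head to head as well, Col4a5 on the plus strand at chrX:141475419-141689235 and Col4a6 on the minus strand at chrX:141165403-141474076, with 1343 bp between the annotated starts. The sequenced RNA groups were both from male mice. Calls for all 4 genes held under every alternative run.

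The remaining pair, Col4a1 and Col4a2, encodes the chains found in nearly every basement membrane, those of vessels included. Col4a1 had 2.57, 1.60 and 1.16 CPM in Nrl-/- photoreceptors, against 0.759, 0.574 and 1.72 CPM in rods, and the groups overlapped (log2 fold change 0.80, SE 0.50, edgeR adjusted p = 1). Col4a2 had too few reads to be tested, with 12, 5 and 10 reads in Nrl-/- photoreceptors and 2, 0 and 1 reads in rods. Of the CPM summed over all 6 type IV genes, Col4a5 and Col4a6 held 90.5% to 92.2% in Nrl-/- libraries and 0.186% to 0.220% in rod libraries. Col4a3 and Col4a4 held 2.18% to 3.88% in Nrl-/- libraries and 99.3% to 99.6% in rod libraries. Sums of CPM are not corrected for gene length, and the ranges of these shares run from the lowest to the highest of 3 libraries.

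**Figure D2:**
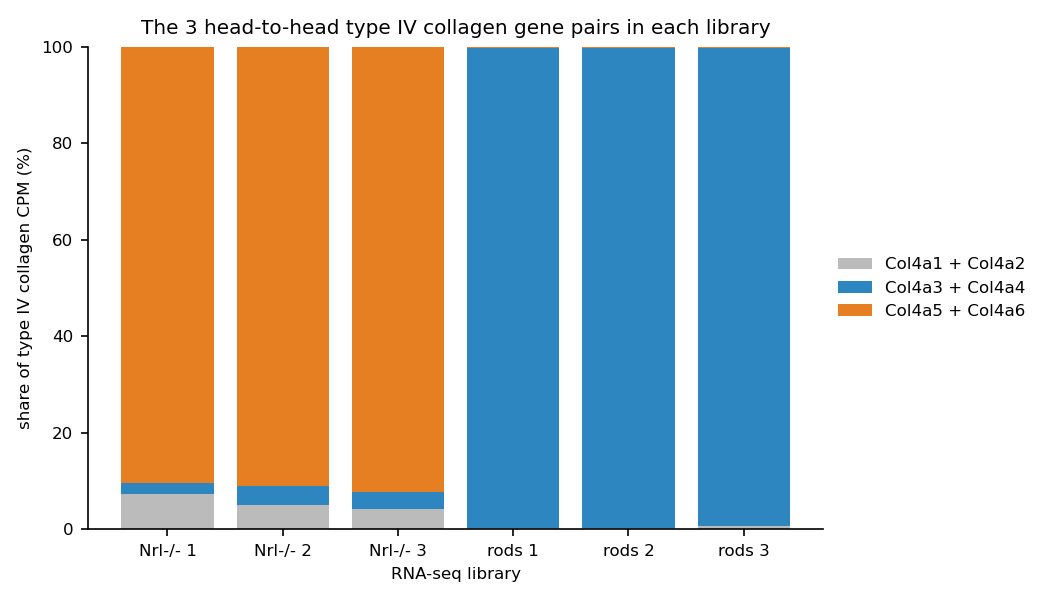
Share of the CPM summed over the 6 type IV collagen genes that each head-to-head pair takes, as stacked bars in percent for each RNA-seq library, with Nrl-/- libraries on the left and rod libraries on the right. Col4a5 and Col4a6 fill at least 90.5% of each Nrl-/- bar and Col4a3 and Col4a4 at least 99.3% of each rod bar.

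Among all 44 collagen genes, 16 were tested, of which 3 were higher (18.8%) and 4 lower (25%) in Nrl-/- photoreceptors, beside 13.3% and 6.88% of all tested genes, and their median log2 fold change was -0.51. Col17a1, a transmembrane collagen known from the hemidesmosomes of skin, was chosen for description after its values were seen. It had 4.30, 3.86 and 4.94 CPM in Nrl-/- photoreceptors, against 0, 0.0522 and 0.111 CPM in rods. In reads this is 340 in Nrl-/- photoreceptors and 3 in rods, a ratio of 83.0 (95% interval 28.2 to 405, counting error only), and the test was passed with an edgeR adjusted p of 6.28e-06. Col19a1, a collagen with interrupted triple helices that is made by some neurons, fell to 7.85, 8.16 and 3.44 CPM in Nrl-/- photoreceptors, against 54.7, 52.2 and 47.2 CPM in rods (log2 fold change -2.99, SE 0.26, edgeR adjusted p = 1.39e-05). All 3 rod libraries were more than 5 times as high as any Nrl-/- library. Col26a1, chosen after its values were seen, had 0.197, 0.273 and 0.0749 CPM in Nrl-/- photoreceptors, against 1.47, 1.15 and 1.17 CPM in rods (log2 fold change -2.77, SE 0.55, edgeR adjusted p = 0.00818). Its call was lost with DESeq2 (adjusted p = 0.104) and without rod replicate 1 (edgeR adjusted p = 0.0556).

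Of the collagens that did not pass, Col20a1 was nearest to the threshold. It had 1.34, 1.68 and 2.88 CPM in Nrl-/- photoreceptors, against 5.37, 5.48 and 6.51 CPM in rods, without overlap (log2 fold change -1.55, SE 0.32, edgeR adjusted p = 0.0715), and without Nrl-/- replicate 3 it passed (edgeR adjusted p = 0.00581). Col7a1, the gene of the anchoring fibril collagen, had 8.53, 6.67 and 6.55 CPM in Nrl-/- photoreceptors, against 5.72, 6.52 and 5.40 CPM in rods (log2 fold change 0.30, SE 0.21, edgeR adjusted p = 1). The fibrillar collagens of connective tissue were near or at 0. Col1a1 had 0 reads in Nrl-/- photoreceptors and 3 in a single rod library, Col3a1 had none in any library, and Col1a2 had 5, 23 and 52 reads in Nrl-/- photoreceptors and 0, 0 and 7 reads in rods.

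**Figure D3:**
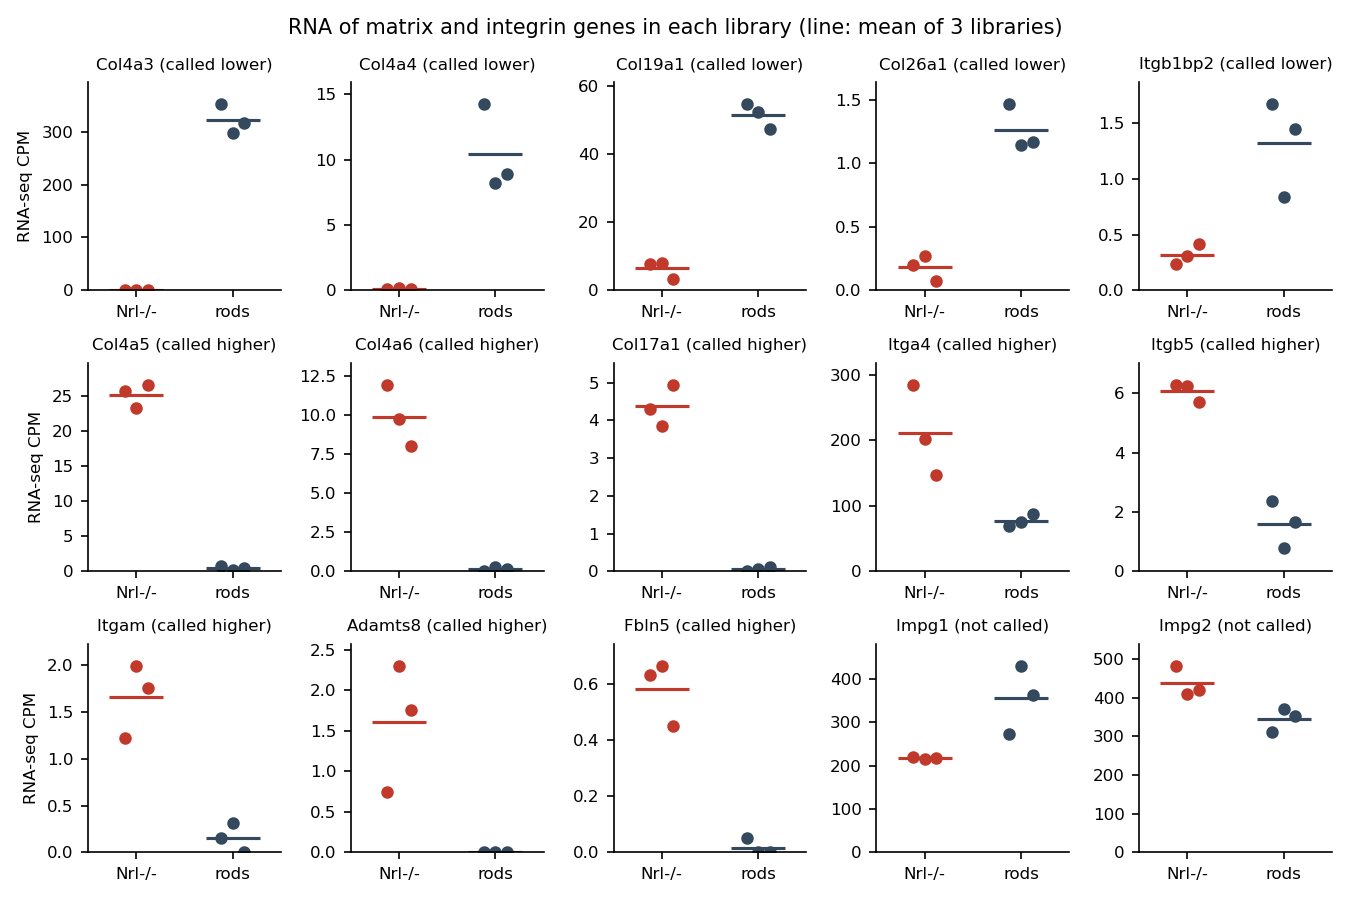
RNA-seq CPM in each library for the 13 matrix and integrin genes that passed the test and for Impg1 and Impg2, which did not, with Nrl-/- photoreceptors on the left and rods on the right of each panel, points for single libraries, a bar at their mean (n = 3) and a linear axis from 0 for each gene. The libraries of Nrl-/- photoreceptors and rods do not overlap in any panel, and Itga4 spreads over 147 to 285 CPM in Nrl-/- photoreceptors.

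Among the 31 integrin names, 11 were tested, of which 3 were higher (27.3%) and 1 lower (9.09%) in Nrl-/- photoreceptors, beside the same 13.3% and 6.88% of all tested genes, with a median log2 fold change of 0.22. Itga4, whose alpha 4 subunit pairs with beta 1 or beta 7 and binds fibronectin and VCAM-1, was the most abundant gene of an integrin subunit in both groups, at 21.5 CPM per kb of exon in Nrl-/- photoreceptors and 7.83 CPM per kb in rods. It had 285, 202 and 147 CPM in Nrl-/- photoreceptors, against 68.7, 75.4 and 87.0 CPM in rods. The groups did not overlap, and the log2 fold change was 1.46 (SE 0.20, edgeR adjusted p = 0.0286). The call was lost with DESeq2 (adjusted p = 0.140) and without Nrl-/- replicate 1, rod replicate 1 or rod replicate 2 (edgeR adjusted p = 0.164, 0.107 and 0.0874). It overlaps by 624 bp with Cerkl on the opposite strand, and the cDNA kit does not mark strand, so reads from this stretch cannot be told apart. Cerkl had 88.1, 77.2 and 63.4 CPM in Nrl-/- photoreceptors, against 35.7, 33.0 and 37.8 CPM in rods.

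Itgb5, whose beta 5 subunit pairs with alpha v, the receptor by which retinal pigment epithelium takes up shed outer segments, had 6.28, 6.24 and 5.69 CPM in Nrl-/- photoreceptors, against 2.38, 0.783 and 1.67 CPM in rods (log2 fold change 1.91, SE 0.35, edgeR adjusted p = 0.0162). This call was lost with DESeq2 (adjusted p = 0.0905) and without rod replicate 2 (edgeR adjusted p = 0.0613). Itgav, the partner alpha subunit, had 9.55, 7.81 and 8.80 CPM in Nrl-/- photoreceptors, against 3.80, 4.75 and 4.01 CPM in rods. The groups did not overlap, but the log2 fold change of 1.06 (SE 0.21) did not exceed the tested size of 1 (edgeR adjusted p = 0.585). Itgb1, the beta subunit shared by most matrix-binding integrins, had 9.0, 13.8 and 15.3 CPM in Nrl-/- photoreceptors, against 17.6, 19.4 and 15.5 CPM in rods (log2 fold change -0.46, SE 0.20, edgeR adjusted p = 1). Itga5, the fibronectin receptor subunit, had 1.11, 1.76 and 4.64 CPM in Nrl-/- photoreceptors, against 1.06, 0.678 and 0.890 CPM in rods, and was not called (edgeR adjusted p = 0.266).

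Itgam, the CD11b subunit of microglia and other myeloid cells, was higher in Nrl-/- photoreceptors and was chosen after its values were seen. It had 1.22, 1.99 and 1.76 CPM in Nrl-/- photoreceptors, against 0.152, 0.313 and 0 CPM in rods (log2 fold change 3.35, SE 0.68, edgeR adjusted p = 0.00688). Its beta partner Itgb2 was not tested, with 8, 31 and 48 reads in Nrl-/- photoreceptors and 7, 4 and 4 reads in rods. Microglia and macrophage markers moved the same way (5 of 7 higher, sums of 21.9 to 47.6 CPM in Nrl-/- photoreceptors and 3.76 to 5.84 CPM in rods), and the part of such cells in the Itgam difference was not tested. Itgb1bp2, a muscle protein (melusin) that binds the beta 1 tail, had 0.237, 0.312 and 0.412 CPM in Nrl-/- photoreceptors, against 1.67, 0.835 and 1.45 CPM in rods (log2 fold change -2.02, SE 0.50, edgeR adjusted p = 0.0459). It was chosen after its values were seen, and the call was lost with DESeq2, without a filter on low counts, and without each of Nrl-/- replicates 1, 2 and 3 and rod replicates 1 and 3 (adjusted p between 0.051 and 0.599). The tail-binding protein gene Itgb1bp1 and the centromere protein gene Itgb3bp did not pass, at log2 fold changes of 0.22 (SE 0.17) and -0.63 (SE 0.24, edgeR adjusted p = 1 for both), and Itgb1bp1 overlaps Asap2 on the opposite strand by 370 bp.

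Of the 19 ADAMTS proteases, which cut proteoglycans and procollagens, 4 were tested. In Nrl-/- photoreceptors 1 of them was higher (25%) and 0 were lower, where 13.3% and 6.88% of all tested genes were. Adamts8 had 0.750, 2.30 and 1.76 CPM in Nrl-/- photoreceptors, against 0 reads in all 3 rod libraries, and was chosen after its values were seen. With 125 reads in Nrl-/- photoreceptors, it was at least 10.1-fold higher than a floor of 3 counts per library (edgeR adjusted p = 0.000563). Adamts3, a procollagen and reelin protease, was among the most abundant genes of the group, with 459.6, 430.0 and 298 CPM in Nrl-/- photoreceptors, against 255, 259 and 279 CPM in rods. The groups did not overlap, but the log2 fold change of 0.58 (SE 0.15) was below the tested size of 1 (edgeR adjusted p = 1). Among the 14 glycoproteins, 3 were tested. Fbln5, an elastic fibre protein that binds integrins, had 16, 17 and 12 reads in Nrl-/- photoreceptors and 1, 0 and 0 reads in rods, a ratio of 33.0 (95% interval 5.62 to 1330, counting error only). Its edgeR adjusted p was 0.00438, it was chosen after its values were seen, and DESeq2 did not call it (adjusted p = 0.0645). Fn1 (fibronectin) had 0.0395, 1.37 and 0.711 CPM in Nrl-/- photoreceptors, against 0.304, 0.626 and 1.17 CPM in rods, with full overlap.

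Impg2 and Impg1, the core proteins of the interphotoreceptor matrix, had the highest levels per length of all 129 genes in Nrl-/- photoreceptors, at 63.2 and 60.7 CPM per kb, and in rods Impg1 reached 99.2 and Impg2 49.8 CPM per kb. Impg1 had 219, 216 and 218 CPM in Nrl-/- photoreceptors, against 273, 430.4 and 364 CPM in rods (log2 fold change -0.71, SE 0.15, edgeR adjusted p = 1 against a log2 fold change of 1). Impg2 had 482, 408 and 420.2 CPM in Nrl-/- photoreceptors, against 310.2, 369 and 352 CPM in rods (log2 fold change 0.34, SE 0.12, edgeR adjusted p = 1). The groups did not overlap for either gene, and the differences ran in opposite directions. Against no change instead of a log2 fold change of 1, edgeR gave an adjusted p of 0.00166 for Impg1 and 0.0267 for Impg2. Link protein and large proteoglycan genes were low, with Hapln1, Hapln2 and Acan at 0 reads in every library. Hapln3 had 2.84, 1.87 and 1.53 CPM in Nrl-/- photoreceptors, against 5.26, 3.13 and 3.62 CPM in rods (edgeR adjusted p = 0.887). None of the 4 tested proteoglycan and link protein genes was called.

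Laminin genes were likewise low, and none of the 3 tested was called, while 10 of the 11 were under 1 CPM on average in both groups. Lamc1, the gamma 1 chain of most laminins, was the exception, with 9.87, 7.61 and 5.61 CPM in Nrl-/- photoreceptors, against 6.23, 5.69 and 4.23 CPM in rods (log2 fold change 0.51, SE 0.26, edgeR adjusted p = 1). Its alpha and beta partners were scarce. Lama2 had no read in any library, and Lamb1 averaged 0.489 ± 0.158 CPM in Nrl-/- photoreceptors and 0.651 ± 0.0217 CPM in rods (SD, n = 3 libraries each). Across the whole group, 97 of 129 genes stayed under 1 CPM on average in both groups of libraries. All 129 genes together summed to 1227 to 1589.7 CPM in Nrl-/- libraries and 1420.2 to 1581 CPM in rod libraries, and these ranges overlapped.

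Genes that build, cut or bind the same matrices were read from 10 lists, which hold 165 other genes of the table. Of these, 95 were tested, with 25 higher (26.3%) and 10 lower (10.5%) in Nrl-/- photoreceptors, where 13.3% and 6.88% of all tested genes were. The lists are small, and their counts are to be read against those shares and the median of -0.01 over all tested genes. They were also drawn up with earlier results of these data known, so their shares are no independent evidence of an excess. Of the basement membrane partners 3 were tested and none was called. Egflam, the most abundant of them, had 644, 647 and 632 CPM in Nrl-/- photoreceptors, against 247, 335 and 314 CPM in rods. The groups did not overlap for Egflam, but its log2 fold change of 1.10 (SE 0.13) did not pass the test against 1 (edgeR adjusted p = 0.308). Agrn, which encodes agrin, had 9.47, 10.2 and 6.48 CPM in Nrl-/- photoreceptors, against 4.25, 3.5 and 6.79 CPM in rods, with overlap. Collagen modification genes gave 3 higher and 0 lower of 13 tested (median log2 fold change 0.28). They include Bmp1, the protease that trims procollagen ends, with 13.2, 7.73 and 9.02 CPM in Nrl-/- photoreceptors, against 0.354, 0.157 and 0.167 CPM in rods (log2 fold change 5.42, SE 0.39, edgeR adjusted p = 8.24e-07). Matrix metalloproteinases and inhibitors gave 2 higher and 0 lower of 8 tested (median -0.18), with Mmp2 at 25.5, 28.1 and 26.8 CPM in Nrl-/- photoreceptors, against 9.62, 7.57 and 8.68 CPM in rods (edgeR adjusted p = 0.00103). Hyaluronan genes gave 0 calls of 4 tested.

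The interphotoreceptor matrix and secreted protein list had 1 higher of 3 tested. This was Rbp3, the retinoid carrier of that matrix, at 9527, 9381 and 9839 CPM in Nrl-/- photoreceptors, against 2475, 3189.6 and 3094 CPM in rods (log2 fold change 1.71, SE 0.14, edgeR adjusted p = 0.000240). Cell surface and leucine-rich proteoglycans gave 3 higher and 2 lower of 12 tested (median 0.30), in opposite directions for 2 syndecans. Sdc2 had 136, 149.98 and 137 CPM in Nrl-/- photoreceptors, against 39.6, 46.9 and 43.3 CPM in rods (edgeR adjusted p = 5.13e-05), and Sdc3 had 1.74, 1.44 and 1.91 CPM in Nrl-/- photoreceptors, against 51.7, 41.0 and 49.2 CPM in rods (edgeR adjusted p = 2.05e-09). ADAMTS-like and matricellular genes gave 5 higher and 1 lower of 10 tested (median 1.04). The lower gene was Wisp1, a secreted CCN family protein, at 1.34, 2.19 and 0.487 CPM in Nrl-/- photoreceptors, against 165, 166 and 179 CPM in rods (log2 fold change -6.99, SE 0.31, edgeR adjusted p = 5.93e-09).

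Adaptors that link integrins to actin gave 3 higher and 4 lower of 21 tested (median -0.16). Parvb (beta-parvin) had 83.0, 65.5 and 66.9 CPM in Nrl-/- photoreceptors, against 0.354, 0.626 and 0.723 CPM in rods (log2 fold change 6.98, SE 0.23, edgeR adjusted p = 4.03e-10). The scaffold genes Actn1, Kank1, Pxn and Tln2 were lower in Nrl-/- photoreceptors, at log2 fold changes between -1.97 and -1.50. The dystroglycan list gave 3 higher (Sgce, Dtna and Pomt2) and 2 lower of 14 tested, while Dag1, the matrix receptor itself, was not called (log2 fold change 0.77, SE 0.19, edgeR adjusted p = 1). Adhesion partners of matrix gave 5 higher and 1 lower of 8 tested (median 3.17). Nrcam had 419, 394 and 382 CPM in Nrl-/- photoreceptors, against 3.19, 4.07 and 3.84 CPM in rods, while its relative Nfasc had 1.38, 1.48 and 1.31 CPM in Nrl-/- photoreceptors, against 129, 104 and 128 CPM in rods (edgeR adjusted p = 4.33e-11 and 7.48e-11). Counts per gene cannot show whether these proteins reach the cell surface.

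In ATAC-seq, 272 of the 53204 elements had their nearest annotated start site at 1 of 87 matrix and integrin genes, 122 of them in introns, 85 upstream, 30 at promoters (within 1000 bp before or 100 bp after a start), 20 downstream and 15 in exons. The test was the same as for RNA, at an adjusted p under 0.1. Between Nrl-/- photoreceptors and rods, 242 elements were tested, and 86 were more open in Nrl-/- photoreceptors (35.5%), where 21% of all tested elements were. Less open in Nrl-/- photoreceptors were 12 elements (4.96%), where 6.38% of all tested elements were. Between double-sorted green cones and rods, 71 of 220 elements were more open in green cones (32.3%), where 18.7% of all were, and 11 were less open (5%), where 6.43% of all were. Both comparisons share the rod libraries. More open elements lay at 46 of the 87 genes in Nrl-/- photoreceptors and at 38 in double-sorted green cones. The share of all genes with such an element was not computed, so these 2 counts have no background beside them. With 2 libraries a group, no permutation of the labels could reach a p of 0.05. The same holds for RNA-seq with 3 libraries a group, where the smallest two-sided permutation p is 0.1. The counts fell to 46 and 34 more open elements with DESeq2 in the comparisons of Nrl-/- photoreceptors and double-sorted green cones with rods. They also moved when single libraries were left out, and in each such fit the lone library is assumed to vary like the other group. Shares of all elements under these alternatives are not given here, so the changed counts have no background beside them.

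**Figure D4:**
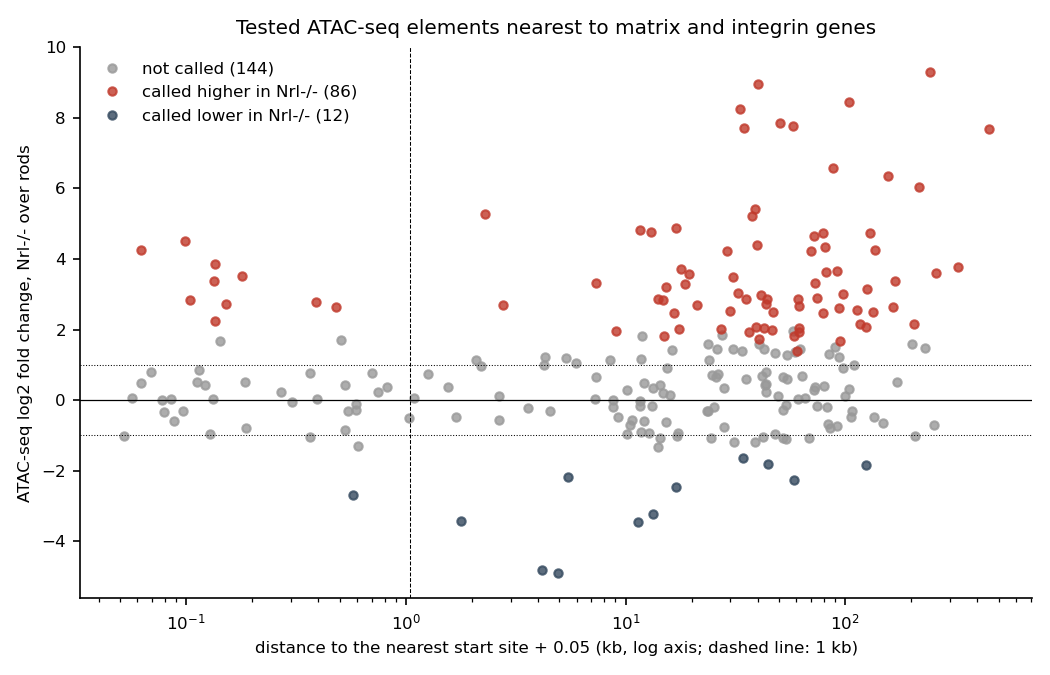
ATAC-seq log2 fold change of Nrl-/- photoreceptors over rods against the distance to the nearest start site (kb, log axis, with 0.05 kb added and a dashed line at 1 kb) for the 242 tested elements nearest to matrix and integrin genes, a point per element, with dotted lines at a log2 fold change of 1 in each direction. The 86 elements that were more open in Nrl-/- photoreceptors reach beyond 100 kb, and the 12 less open elements lie below.

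At promoters 8 of 29 tested elements were more open in Nrl-/- photoreceptors (27.6%) and 1 was less open (3.45%), where 8.89% and 2.98% of all tested promoter elements were. Away from promoters 78 of 213 were more open (36.6%) and 11 less open (5.16%), where 25.4% and 7.61% of all such elements were. The promoters that were more open belong to Col4a5, Col25a1, Col27a1, Adamts2, Adamts20, Itga8, Itga9 and Tnr, of which Col4a5 passed the RNA test and the other 7 had too few reads to be tested. Col25a1 had 0, 1 and 0 reads in Nrl-/- photoreceptors and 12, 9 and 8 in rods, against the direction of its promoter. Itga9 had 0 reads in Nrl-/- photoreceptors and 3, 2 and 1 in rods. Tnr RNA ran with its promoter, and the groups overlapped for Col27a1, Adamts2, Adamts20 and Itga8. The calls at the promoters of Adamts2, Itga8 and Col27a1 were each lost in at least 1 alternative, and those of Col4a5, Col25a1, Adamts20, Itga9 and Tnr in none that gave a value. The less open promoter element belonged to Col9a3, with 1.24 and 1.82 CPM in Nrl-/- photoreceptors, 0 CPM in both double-sorted green cone libraries, and 9.79 and 11.3 CPM in rods. These genes other than Col4a5 were chosen after their values were seen. At Impg1 and Impg2, both abundant in RNA, the promoter elements were open in both groups. The Impg1 promoter had 25.7 and 19.3 CPM in Nrl-/- photoreceptors, against 43.1 and 42.2 CPM in rods, and the Impg2 promoter had 23.2 and 23.8 CPM in Nrl-/- photoreceptors, against 29.4 and 29.6 CPM in rods (edgeR adjusted p = 0.758 and 1).

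Near Col4a1 2 of 3 elements, and near Col4a2 3 of 4, were more open in Nrl-/- photoreceptors than in rods, and as many were in double-sorted green cones. Of all tested elements, 21% and 18.7% were more open in these comparisons. Within 1000 bp of the facing Col4a3 and Col4a4 starts there were 0 of the deposited elements, although Col4a3 RNA was abundant in rods. The only element inside Col4a3, at chr1:82689553-82689752 and 102.7 kb into the gene, had 4.97 and 2.50 CPM in Nrl-/- photoreceptors, 12.4 and 7.19 CPM in double-sorted green cones, 12.7 and 11.9 CPM in single-sorted green cones, and 53.1 and 39.0 CPM in rods. Rods were the highest of the 4 groups without overlap, and the log2 fold change of Nrl-/- photoreceptors over rods was -3.73 (SE 0.29, edgeR adjusted p = 6.40e-10). The nearest start site to this element is that of Mff, a mitochondrial fission gene 35.2 kb away, so that it was not counted among the 272. Mff RNA had 91.2, 96.1 and 127 CPM in Nrl-/- photoreceptors, against 79.4, 88.4 and 90.9 CPM in rods. An intron element of Col4a4, at chr1:82545351-82545550, was open in the other direction, with 12.4 and 12.5 CPM in Nrl-/- photoreceptors, against 1.67 and 1.51 CPM in rods (log2 fold change 2.97, SE 0.48, edgeR adjusted p = 0.000181).

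At the facing Col4a5 and Col4a6 starts there were 2 elements, both more open in Nrl-/- photoreceptors. The element at the Col4a5 start, chrX:141475266-141475465, had 9.11 and 10.4 CPM in Nrl-/- photoreceptors, 3.11 and 0 CPM in double-sorted green cones, 1.47 and 2.74 CPM in single-sorted green cones, and 0.833 and 1.88 CPM in rods (log2 fold change over rods 2.83, SE 0.54, edgeR adjusted p = 0.00114). The other, 0.34 kb into Col4a5, had 3.31 and 7.26 CPM in Nrl-/- photoreceptors, against 1.25 and 0.377 CPM in rods, and its call was lost with DESeq2, without Nrl-/- replicate 2 and without rod replicate 2. All 4 elements in introns of Col4a6 were more open in Nrl-/- photoreceptors, where 21% of all tested elements were. The element 40.1 kb into the gene, chrX:141433847-141434046, had 17.4 and 12.3 CPM in Nrl-/- photoreceptors, 0 and 1.80 CPM in double-sorted green cones, 1.95 and 0 CPM in single-sorted green cones, and 0 counts in both rod libraries, so that it was at least 24.9-fold higher in Nrl-/- photoreceptors than a floor of 3 counts per rod library (edgeR adjusted p = 1.61e-08). The call of this element held in all 9 alternatives that gave a value. Of the other 3, all were lost with DESeq2, those 166 and 169 kb into the gene also without rod replicate 2, and that at 166 kb also without Nrl-/- replicate 2.

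**Figure D5:**
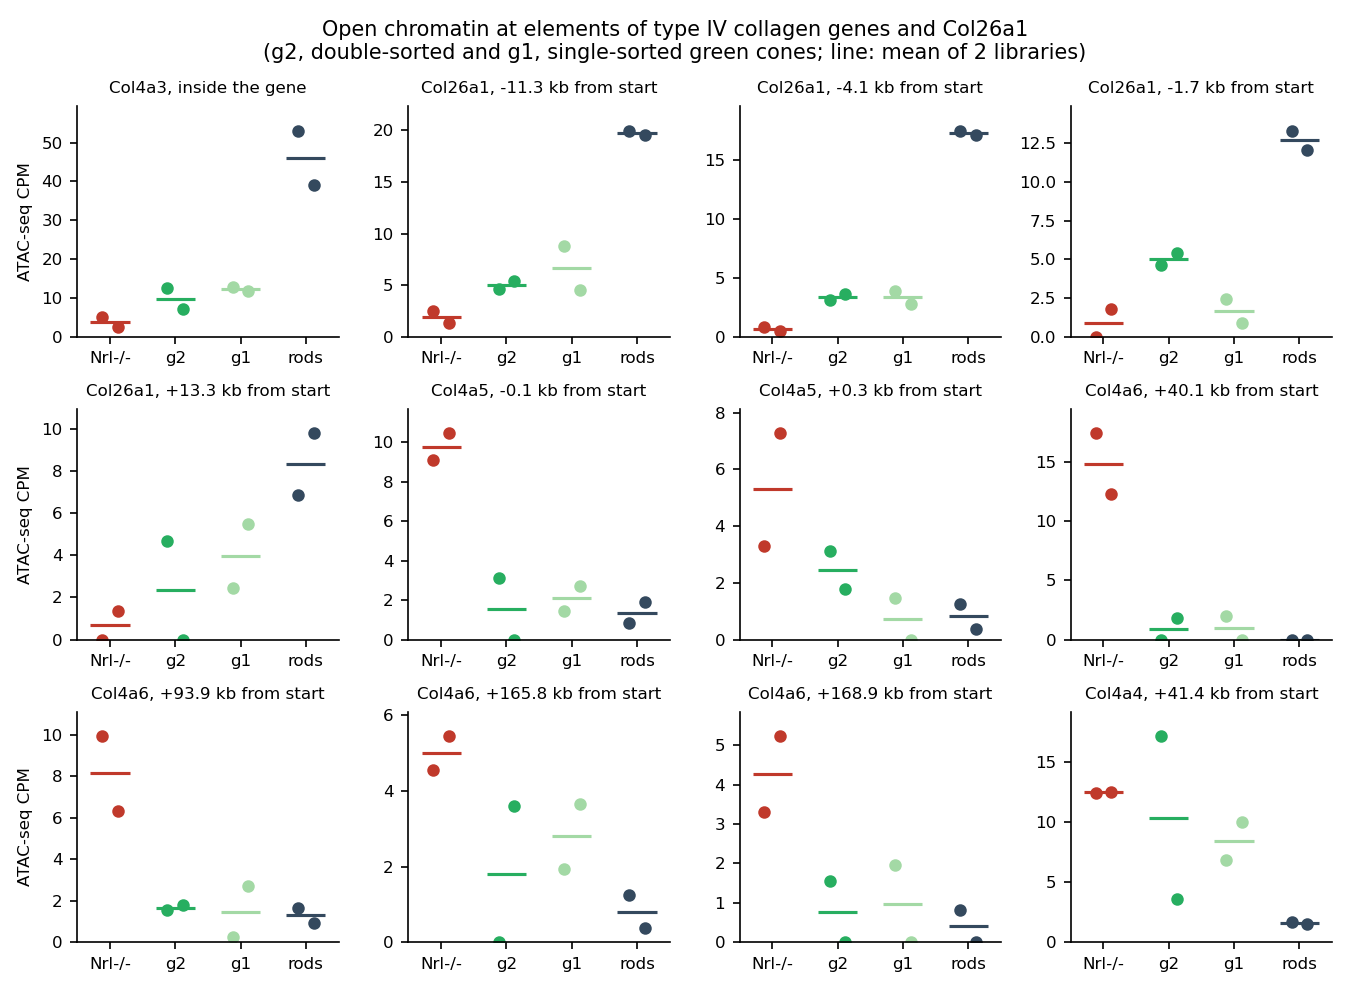
ATAC-seq CPM in each library at the called elements of Col4a3, Col26a1, Col4a5, Col4a6 and Col4a4, with Nrl-/- photoreceptors, double-sorted green cones (g2), single-sorted green cones (g1) and rods from left to right, points for single libraries, a bar at their mean (n = 2) and a linear axis from 0 for each element. Rods are highest at the Col4a3 and Col26a1 elements (39.0 and 53.1 CPM at Col4a3), and Nrl-/- photoreceptors are highest at the Col4a5 and Col4a6 elements.

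The sequences of these regions are shown because they are starts and elements of genes whose values are described here, 5′ to 3′ and from GRCm38.p6, with the promoters (250 bases before to 50 after a start, in the gene's orientation) from RefSeq and the elements on the plus strand. Capitals mark any match, on either strand, to TAATCC (the core bound by CRX), TGCTGAC (bound by NRL), AGGTCA (bound by nuclear receptors), GGGCGG (GC box) or CTATTTTTA (MEF2). A TGCTGAC and an AGGTCA on opposite strands can share letters. The Col4a6 and Tnr elements shown had the highest log2 fold change of Nrl-/- photoreceptors over rods at their gene. The Col26a1 element had the lowest of those upstream of that gene, so these elements were picked by their values. Promoter sequences were found for 92 of the 129 genes. The Col4a4 promoter window covers chr1:82586800-82587099 on the minus strand and also holds the facing Col4a3 start, and the Col4a5 promoter window covers chrX:141475169-141475468 on the plus strand.
Col4a4 promoter: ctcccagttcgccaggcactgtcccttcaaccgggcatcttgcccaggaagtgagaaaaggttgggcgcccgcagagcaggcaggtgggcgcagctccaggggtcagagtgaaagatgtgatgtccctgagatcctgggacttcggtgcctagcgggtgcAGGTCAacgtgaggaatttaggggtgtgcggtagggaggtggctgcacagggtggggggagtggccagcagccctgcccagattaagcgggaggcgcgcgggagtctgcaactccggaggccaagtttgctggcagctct
Col4a5 promoter: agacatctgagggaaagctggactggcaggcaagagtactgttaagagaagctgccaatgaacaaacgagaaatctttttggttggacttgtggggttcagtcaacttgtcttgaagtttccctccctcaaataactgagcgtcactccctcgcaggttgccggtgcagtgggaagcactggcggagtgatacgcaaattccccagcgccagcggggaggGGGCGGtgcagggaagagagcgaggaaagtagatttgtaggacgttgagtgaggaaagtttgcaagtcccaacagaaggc
Col4a3 intron element: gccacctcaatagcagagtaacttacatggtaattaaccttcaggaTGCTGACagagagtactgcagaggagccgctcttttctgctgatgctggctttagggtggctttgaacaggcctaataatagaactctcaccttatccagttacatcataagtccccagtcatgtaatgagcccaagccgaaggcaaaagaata
Col4a6 intron element: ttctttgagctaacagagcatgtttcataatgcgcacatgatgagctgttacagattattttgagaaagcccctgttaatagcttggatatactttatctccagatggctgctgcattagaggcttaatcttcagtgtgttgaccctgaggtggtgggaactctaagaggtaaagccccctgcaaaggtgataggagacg
Col26a1 upstream element: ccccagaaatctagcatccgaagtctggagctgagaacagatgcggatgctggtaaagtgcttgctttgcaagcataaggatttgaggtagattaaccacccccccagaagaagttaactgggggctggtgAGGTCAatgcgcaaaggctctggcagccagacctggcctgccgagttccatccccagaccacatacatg
Tnr intron element: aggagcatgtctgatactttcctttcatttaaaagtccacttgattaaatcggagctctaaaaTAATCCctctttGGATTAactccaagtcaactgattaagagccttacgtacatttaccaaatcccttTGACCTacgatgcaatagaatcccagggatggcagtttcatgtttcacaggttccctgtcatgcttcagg
The Col4a3 intron element held TGCTGAC, which 3.98% of all 53204 elements hold, and no TAATCC, which 21.1% hold. The Col4a5 promoter held GGGCGG, found in 35.7% of 32851 promoters, and the Col4a4 promoter held AGGTCA, found in 16.3% of them. The Col4a6 intron element held none of the 5 motifs. The Col26a1 upstream element held AGGTCA (14.9% of elements), and the Tnr intron element held TAATCC on both strands and AGGTCA once. A match describes the letters and is no evidence of binding.

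Col26a1 was the gene with most elements less open in Nrl-/- photoreceptors, 4 of its 6, where 6.38% of all tested elements were. The element 4.12 kb upstream, chr5:136887234-136887433, had 0.828 and 0.454 CPM in Nrl-/- photoreceptors, 3.11 and 3.59 CPM in double-sorted green cones, and 17.5 and 17.1 CPM in rods (log2 fold change over rods -4.80, SE 0.53, edgeR adjusted p = 1.18e-07). Elements 1.73 and 11.3 kb upstream and 13.3 kb inside the gene were also less open, at log2 fold changes of -3.43, -3.44 and -3.23, and the call 1.73 kb upstream was lost with DESeq2. Col26a1 RNA, which was lower in Nrl-/- photoreceptors as well, reached at most 1.47 CPM in any library. Fbln5 had 1 called element nearest to its start, 39.8 kb into the gene, with 17.0 and 17.3 CPM in Nrl-/- photoreceptors, against 0.833 and 0.753 CPM in rods (log2 fold change 4.40, SE 0.49, edgeR adjusted p = 1.33e-07). Col17a1, higher in RNA, had an element 9.03 kb upstream with 16.6 and 15.9 CPM in Nrl-/- photoreceptors, against 4.17 and 4.14 CPM in rods (edgeR adjusted p = 0.00589), a call lost with DESeq2. Open chromatin and RNA did not go the same way at Col19a1, whose only element, in an intron, had 28.6 and 28.1 CPM in Nrl-/- photoreceptors, against 10.8 and 7.15 CPM in rods (log2 fold change 1.68, SE 0.26, edgeR adjusted p = 0.00771, lost with DESeq2 and without rod replicate 2).

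Elements also differed at genes whose RNA was too low to test or was not called, and these genes were chosen after their values were seen. Tnr, which encodes tenascin-R of perineuronal nets, had 14 elements, 8 more open in Nrl-/- photoreceptors and 9 in double-sorted green cones. Of all tested elements, 21% and 18.7% were more open in these comparisons with rods. The element 243 kb into the gene, chr1:159766838-159767037, had 19.5 and 17.5 CPM in Nrl-/- photoreceptors, 11.7 and 11.7 CPM in double-sorted green cones and 0 counts in both rod libraries, so that it was at least 31.0-fold higher in Nrl-/- photoreceptors than a floor of 3 counts per rod library (edgeR adjusted p = 9.07e-10). Tnr RNA had 20, 10 and 5 reads in Nrl-/- photoreceptors and 0, 1 and 2 reads in rods, a ratio of 8.55 (95% interval 2.69 to 43.4, counting error only). An element 4.87 kb upstream of Itgal, the alpha L subunit of leukocytes, was the least open in Nrl-/- photoreceptors relative to rods, with 1.66 and 0.908 CPM in Nrl-/- photoreceptors, 0 and 3.59 CPM in double-sorted green cones, and 32.7 and 40.1 CPM in rods (log2 fold change over rods -4.90, SE 0.37, edgeR adjusted p = 4.67e-11). Itgal RNA had 0 reads in all 6 libraries. Adamts3 had 12 elements, of which 3 were less open in Nrl-/- photoreceptors (log2 fold changes -2.45, -1.85 and -1.65), where 6.38% of all tested elements were. Each of these calls was lost with DESeq2, and Adamts3 RNA was not lower in Nrl-/- photoreceptors.

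Nrl-/- photoreceptors and green cones were also set against each other, in a comparison added after the data were seen. Against single-sorted green cones, 6 of 246 elements were more open in Nrl-/- photoreceptors (2.44%), where 1.03% of all tested elements were, and 5 were less open (2.03%), where 1.83% of all were. Against double-sorted green cones, 0 of 201 elements passed in edgeR and 0 in DESeq2, where edgeR called 0.00234% of all tested elements more open and 0.0374% less open. An unadjusted edgeR p under 0.05 was reached by 25 (12.4%), where 7.06% of all tested elements reached it. DESeq2 called 0 more open and 1 less open element against single-sorted green cones, edgeR called 2 more open without Nrl-/- replicate 2, and it called 1 and 3 less open without single-sorted green cone replicate 2 or Nrl-/- replicate 1. The Col4a6 element 40.1 kb into the gene was among the 6 (log2 fold change 3.53, edgeR adjusted p = 0.00196), but not called against double-sorted green cones (log2 fold change 4.04, edgeR adjusted p = 0.191). The Col4a5 promoter element was not called against either (log2 fold change 2.31 and 2.53, edgeR adjusted p = 0.102 and 0.564). At Itga6, the laminin receptor subunit, the CPM of an element chosen after its values were seen ran the other way. As stated, 0 of the 201 tested elements were called against double-sorted green cones. Its intron element 14.9 kb from the start had 1.66 and 0.908 CPM in Nrl-/- photoreceptors, 31.1 and 14.4 CPM in double-sorted green cones, 12.9 and 22.3 CPM in single-sorted green cones, and 0 counts in both rod libraries. RNA of green cones was not analysed here.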

How the data were processed

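RNA was measured in 6 libraries and open chromatin in 8, each from a separate sort. The authors deposited raw counts per gene and per ATAC-seq element for each library, not normalized. The submitters' processing notes name STAR 2.4.2a, HTSeq 0.6.1p1, Bowtie2 2.2.3, SAMtools 1.3, Picard 1.121, MACS2 2.1.0, HOMER 4.8 and bedtools 2.24.0. ATAC-seq reads were kept at inserts under 100 bp, and mates of a pair can both be counted. The strand setting of gene counting is not given in the sources used here, and the SMARTer kit does not mark strand. Reads assigned to no gene made up 41.3% to 49.2% of the RNA-seq tables and were left out.

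Library sizes were scaled by TMM, low counts removed with filterByExpr, and the rest fitted by the quasi-likelihood model of edgeR 4.0.16 in R 4.3.3 (glmTreat, two-sided, against a log2 fold change of 1), with Benjamini-Hochberg adjustment over all features and thresholds of 0.05 for RNA and 0.1 for ATAC-seq. Each fit held only the groups compared. The standard error is the absolute log2 fold change, unshrunken, over the square root of the F statistic against no change. CPM are counts per 1000000 after scaling. Folds against a group at 0 use a floor of 3 counts per library, and floors and intervals cover counting error only. Elements were assigned to the nearest of 31450 RefSeq start sites of GRCm38.p6. Scripts were tested on simulated data. Python 3.11.15, pandas 2.3.3, matplotlib 3.10.9 and samtools 1.23.1 served for sequences and figures.

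The genes and lists were chosen with earlier results of these data known. Named genes are the members that passed the RNA test with a mean of at least 5 CPM in the higher group, the 3 most abundant members of each group, Impg1 and Impg2, up to 3 abundant members per family that missed the test, and up to 4 of each other list. Genes named outside this rule were chosen after their values were seen. DESeq2 1.42.0, other size factors, a test against no change, no filter, a replicate block and leaving out each library were the alternatives, and the comparison of Nrl-/- photoreceptors with green cones and the assignment of elements by gene body were added after the data were seen. Outside the replicate block, libraries were not treated as paired by replicate number.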

Additional observations from a re-analysis of the deposited data

How the results depend on the processing

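Counts of called genes and elements moved with the tool, with the size of change tested and with single libraries. Shares of all elements under the alternatives are not given here, so the element counts below have no background beside them. DESeq2 called 5 of the matrix and integrin genes higher and 3 lower in RNA, and a test against no change called 13 and 11. Over all genes, DESeq2 called 1373 higher and 611 lower of 14645, and the test against no change 3866 and 3639 of 12327. Leaving out single libraries gave 1509 to 1716 higher and 741 to 1074 lower over all genes, of 12498 to 12874 tested. Over the other lists the test against no change called 38 higher and 20 lower. For elements of Nrl-/- photoreceptors over rods, DESeq2 called 46 more open and 6 less open, and the test against no change called 42 less open. For double-sorted green cones over rods, DESeq2 called 34 more open and 3 less open, the test against no change 31 less open, and single-sorted green cones gave 7 less open. For Nrl-/- photoreceptors over single-sorted green cones, DESeq2 called 0 more open and 1 less open, the test against no change 29 and 16, and double-sorted green cones gave 0 and 0. Leaving out each library in turn gave 6 to 10 genes higher and 4 to 6 lower, 21 to 27 higher and 9 to 11 lower in the other lists, 47 to 86 elements more open and 11 to 14 less open in Nrl-/- photoreceptors over rods, 38 to 78 and 4 to 21 in double-sorted green cones over rods, and 2 to 8 and 1 to 5 in Nrl-/- photoreceptors over single-sorted green cones. Same-numbered libraries correlated by 0.17, 0.08 and 0.01 in RNA and by an identical 0.03 for both numbers in ATAC-seq. With so few libraries these values cannot show whether same-numbered libraries shared a batch. With the replicate block 8 genes were higher and 5 lower (Itgb1bp2 lost at an edgeR adjusted p of 0.0818, Col20a1 gained at 0.0428), 24 and 9 in the other lists, 78 and 12 elements in Nrl-/- photoreceptors over rods, and 7 and 6 over single-sorted green cones. Of 722 values for 66 single RNA genes under alternatives, 682 kept their side of the threshold, 26 lost it and 14 gained it, and 0 of the values of called genes changed sign. With 2 ATAC-seq libraries a group and 1062403 reads in the shallowest, elements at a few counts cannot be ordered.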
